A study of Mus musculus with 25 samples.

Results

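The microRNA genes other than Mir150 were followed in RNA-seq counts of sorted CD4 T cells. The members were all rows of the gene count table whose mouse symbol is Mir followed by a digit, or Mirlet7 followed by a letter, without host gene transcripts (symbols ending in hg) and without Mir150. This rule gave 1179 of 46078 rows, with 1175 distinct symbols, since 4 symbols stand on 2 gene IDs each. Of these rows 531 had at least 1 count over the 25 libraries, 250 had 50 or more and 648 had none. The libraries came from C57BL/6NTac mice: miR-150 knock-out (ko) at day 7 of experimental autoimmune encephalomyelitis (EAE), a mouse disease model of multiple sclerosis that is started by immunization, miR-150 knock-in (ki) at day 7, wild-type (wt) at day 7, and the same 3 genotypes naive. The wt day 7 group had 5 libraries and each of the other 5 groups had 4. The labels do not say how the knock-out and knock-in alleles were made, nor do they tie libraries to individual mice. A p-value therefore sets a difference against the variation among libraries, part of which may be technical.

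MicroRNAs are short RNAs that silence messenger RNAs. They are cut out of long primary transcripts: the nuclear enzyme Drosha with its partner Dgcr8 releases a hairpin, and Dicer1 cuts the hairpin into the mature strand that Argonaute proteins carry. Many hairpins lie in introns of coding genes, and others in long transcripts with no other known product. The libraries were made from total RNA with a kit for longer fragments, so a count on a microRNA row here is a read of RNA over a hairpin gene of 39 to 141 bases (median 81), and the mature microRNA was not measured. In CD4 T cells miR-142, miR-155, miR-146a, miR-181, miR-17 to miR-92 and miR-150 itself are among the microRNAs with known roles in activation and helper differentiation.

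The sequences below are those of the hairpin rows on which the results turn, as RefSeq gives them on GRCm38.p6 (192 of the 250 rows with 50 or more counts had an entry). Each mature strand runs 5′ to 3′, and the capitals mark the seed, bases 2 to 8, which pairs with target messenger RNAs. The first set comes from the rows that passed the test between day 7 and naive cells: both strands of miR-142, the strand that RefSeq lists for miR-1938 and miR-6236, and the 5p strands of miR-196a and let-7a, whose 3p strands are not shown.
mmu-miR-142a-5p: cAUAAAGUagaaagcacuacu
mmu-miR-142a-3p: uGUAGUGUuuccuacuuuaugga
mmu-miR-1938: cGGUGGGAcuuguaguucgguc
mmu-miR-196a-5p: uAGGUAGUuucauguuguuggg
mmu-let-7a-5p: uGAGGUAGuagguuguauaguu
mmu-miR-6236: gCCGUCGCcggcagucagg
Mir196a-1 on chromosome 11 and Mir196a-2 on chromosome 15 give the same mature 5p strand. Among the 250 rows the most widely shared seed was GAGGUAG, held by 8 members of the let-7 family: Mirlet7a-1, Mirlet7b, Mirlet7c-2, Mirlet7f-1, Mirlet7f-2, Mirlet7g, Mirlet7i and Mir98. The seed AGCAGCA was held by Mir15a, Mir15b, Mir16-2 and Mir6353, and AGCACCA by Mir29a and Mir29b-1.
mmu-let-7g-5p: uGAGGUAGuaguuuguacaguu
mmu-miR-98-5p: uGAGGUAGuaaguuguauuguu
mmu-miR-15b-5p: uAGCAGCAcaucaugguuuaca
mmu-miR-16-5p: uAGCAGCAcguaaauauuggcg
mmu-miR-29a-3p: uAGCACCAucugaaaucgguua
mmu-miR-29b-3p: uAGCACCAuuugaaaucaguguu
The counted features were the hairpins. Those of the rows with the clearest change are given as DNA from GENCODE M21 transcripts, with the mature strands in capitals. Mir142 lies on the plus strand at chr11:87756864-87756927, and Mir1938 on the minus strand at chr12:40222712-40222811 (mm10).
Mir142: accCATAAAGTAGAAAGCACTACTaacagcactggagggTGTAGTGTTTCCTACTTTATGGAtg
Mir1938: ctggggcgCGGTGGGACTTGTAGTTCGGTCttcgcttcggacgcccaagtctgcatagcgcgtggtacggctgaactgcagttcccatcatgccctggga

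Library totals ran from 6024043 to 49489134 counts (median 16312725), and each library had counts on 182 to 367 of the microRNA rows. Naive wt libraries were the shallowest group, at 6024043 to 9351180 counts, against 6434118 to 30383082 for wt day 7. Naive ko libraries had 13917799 to 43640843 counts and naive ki libraries 6454287 to 45739082. Ribosomal RNA genes and rows resembling them made up 20.5% to 32.4% of a library's counts. The rows resembling them included Gm23935, Gm26917 and Gm42418, with 41942316, 31049925 and 25856394 counts over all libraries. Markers of CD4 T cells summed to 2360 to 2720 CPM (counts scaled to a common library size) in every library, against at most 47.5 CPM for CD8 T and natural killer markers, 24.96 CPM for B cell markers and 20.6 CPM for myeloid markers. Of the 7 tested CD8 T and natural killer markers, Klrk1 and Klrd1 were called lower at day 7 over genotypes. The summed level of that list was 13.0 to 18.96 CPM at day 7 and 18.1 to 26.1 CPM in naive wt libraries, 17.3 to 26.1 and 21.6 to 47.5 CPM in ko, and 14.7 to 17.8 and 18.9 to 23.8 CPM in ki, and its part in the day 7 results was not tested. None of the tested markers of the other lists was called in that comparison. Levels below are CPM scaled by TMM factors, as mean ± SD over libraries. Replicate 3 of the ko day 7 group was the deepest library, had the highest ribosomal share and had counts on the fewest microRNA rows (182). Results that rest on it are also given without it.

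The microRNA rows held 1063470 of 521462283 counts, which is 0.204%. A single row, Mir6236, held 977828 of them (91.9%), and the other 1178 rows shared 85642 counts. At or above 1000 counts stood 15 rows, 153 had at least 100 and under 1000, 82 had at least 50 and under 100, and 281 had 1 to 49. Counts were present in all 25 libraries for 54 rows. At the limit of detail, 4 rows had exactly 50 counts (Mir207, Mir466b-3, Mir6353 and Mir7015), and the highest total under it was 49.

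After Mir6236 the rows with the most counts were Mir5125 (5655 counts), Mir6240 (4059), Mir342 (3915), Mir142 (2883), Mir1931 (1974), Mir6374 (1684), Mir8119 (1642), Mirlet7a-1 (1600), Mir1190 (1542), Mir8094 (1205), Mir5104 (1157), Mir1955 (1130), Mir8112 (1046) and Mir6948 (1012). Most of them sit inside genes that T cells transcribe. Mir5125 lies in an intron of Srrm2, a splicing factor gene, Mir342 in an intron of Evl, an actin regulator, Mir8119 partly in an exon of Lck, the T cell receptor kinase, and Mir6374 in an intron of Tet3, a methylcytosine oxidase. Per length, Mir6236 was at 14515 CPM per kb averaged over the 25 libraries, Mir5125 at 134, Mir142 at 82.6, Mir342 at 77.0 and Mir6240 at 39.5. Among the well-known microRNA genes whose rows had counts, Mir142, whose microRNA is found across blood cells, was therefore among the highest on this scale, with Mir342 next to it.

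Whether a microRNA row had counts went with its place in the annotation. Of 559 rows in an intron of a gene on the same strand, 354 had counts (63.3%) and 200 had 50 or more. Of 186 rows that lie wholly inside an exon of a gene on the same strand, 20 had counts (10.8%). Counts were on 44 of the 86 rows partly inside such an exon (51.2%), on 46 of 114 rows that overlap a gene on the opposite strand only (40.4%) and on 67 of 234 rows with no other gene over them (28.6%). The contrast was larger when the overlapping gene was itself abundant: where that gene had 5000 or more counts, 278 of 315 intronic rows had counts (88.3%), against 11 of 102 exonic rows (10.8%). How the authors' counting assigned reads that fall on a microRNA and on an exon of a longer gene at once was not given in the sources used here, and its part in this contrast was not tested.

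**Figure D1:**
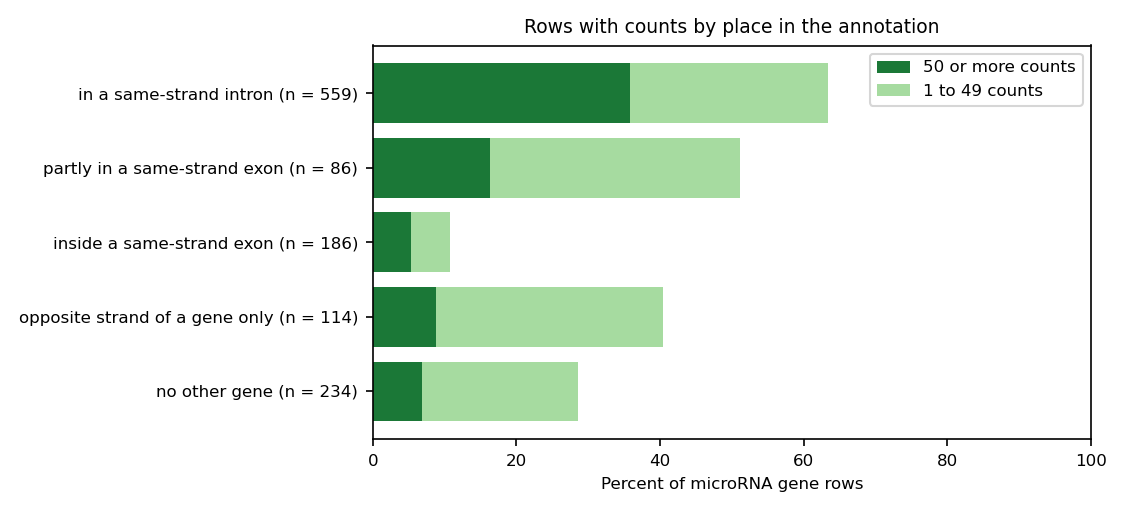
Horizontal bars give the percent of microRNA gene rows with 50 or more counts (dark) and with 1 to 49 counts (light) over 25 libraries, by place in the GENCODE M21 annotation. Of the intronic rows 63.3% had counts, against 10.8% of the rows wholly inside a same-strand exon.

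This contrast covers several of the best-known T cell microRNAs. A list of 44 microRNA names held mostly those with known roles in T cells or other blood cells, and some known from muscle or liver. Of these names 42 had a row under the listed symbol. This leaves out the row named Mir146, the source of miR-146a, which had 50 or more counts. Of the 42 rows, 8 had 50 or more counts, 13 had 1 to 49 and 21 had none. Of the 15 that lie wholly inside a same-strand exon, 14 had no count. Mir155, needed for helper T cell and B cell responses, had none while its transcript Mir155hg had 977. Mir17, Mir18, Mir19a, Mir20a, Mir19b-1 and Mir92-1, the cluster that promotes lymphocyte growth, had none while Mir17hg had 7696. Mir21a, induced on T cell activation, had none inside Vmp1, which had 18329. Mir29b-2 and Mir29c had none inside A330023F24Rik, which had 7090. No statement on the expression of these microRNAs can be read from their rows.

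Among the well-known microRNAs whose rows had counts, Mir142 led with 2883. Mir16-2 had 921 counts and Mir15b 109, both in an intron of Smc4, a condensin gene, and Mir15a had 143 in an intron of Dleu2, a long non-coding RNA. Mir326, known for promoting Th17 cells in EAE, had 369 in an intron of Arrb1, which encodes beta-arrestin 1. Mir29a had 236 and Mir29b-1 235, in a cluster known to restrain Th1 genes. The row named Mir146, which RefSeq gives as the source of miR-146a, a brake on NF-kappaB signalling, averaged 0.440 CPM over the 25 libraries. Mir301 had 67. Mir223, Mir144, Mir1a-1, Mir122 and Mir133a-1, known from myeloid cells, red cells, muscle or liver, had 0 counts, and Mir451a, an erythroid microRNA, had 8 counts in 1 library. Of these, Mir223 and Mir122 lie wholly inside a same-strand exon, so no statement on their expression can be read from their rows. Summed over family members, the let-7 family had 3467 counts on 10 of 12 rows, the miR-23, miR-27 and miR-24 rows 1230 on 6 of 6, the miR-15 and miR-16 rows with Mir497 and Mir497b 1214 on 6 of 6, the miR-103 and miR-107 rows 635 on 3 of 3, the miR-30 rows 484 on 4 of 6 and the miR-26 rows 288 on 3 of 3. The miR-181 rows, a family that sets T cell receptor sensitivity in the thymus, had 42 counts on 5 of 6.

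Genes were tested with edgeR's quasi-likelihood test over all 25 libraries, and a gene is called below when its Benjamini-Hochberg adjusted p over the 14703 genes tested was under 0.05. The filter on low counts kept 119 of the 250 microRNA rows with 50 or more counts and none with fewer. The lowest total among those kept was 148 and the median 332. At day 7 against naive cells, averaged over the 3 genotypes, 5 of the 119 rows were called, 4 higher (Mir142, Mir1938, Mir6236 and Mir196a-2) and 1 lower (Mirlet7a-1). This is 4.2% of the tested microRNA rows, against 11.2% of all tested genes (6.16% higher and 5.06% lower). The median log2 fold change was 0.01 over the microRNA rows and 0.00 over all genes. In wt mice alone 2 rows were called, both higher (Mir142 and Mir1938), against 2.14% of all genes, 1.18% higher. In ko mice 0 were called, against 0.408% of all genes, and 6 had an unadjusted p under 0.05 (5.04%, against 12.8% of all genes). In ki mice 0 were called, against 2.02% of all genes, and 8 had an unadjusted p under 0.05 (6.72%, against 15.1% of all genes). DESeq2 called 2 in ko (Mir142 and Mir1938) and 1 in ki (Mir142), against 1.44% and 3.79% of all genes.

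Mir142 averaged higher at day 7 in each genotype. In bulk samples a change in the cells present and a change of RNA per cell cannot be told apart, here and below. In wt mice its row had 9.72, 6.61, 8.08, 6.39 and 7.33 CPM at day 7, against 1.10, 3.09, 2.59 and 3.61 CPM in naive libraries. These groups did not overlap: the lowest day 7 library stood above the highest naive one. In ko mice it had 9.11, 3.58, 9.36 and 5.14 CPM at day 7, against 3.30, 1.98, 2.26 and 4.54 CPM in naive libraries, which overlap. In ki mice it had 8.17, 10.3, 6.39 and 4.58 CPM at day 7, against 3.94, 3.83, 2.89 and 4.25 CPM in naive libraries, with no overlap. The log2 fold change was 1.23 ± 0.18 (SE) averaged over genotypes, a 2.34-fold rise with an adjusted p of 3.9e-05 by edgeR. It was 1.53 ± 0.32 in wt (adjusted p = 0.0082), 1.16 ± 0.31 in ko (adjusted p = 0.084) and 1.0014 ± 0.31 in ki (adjusted p = 0.093), so the call was made in wt only. The difference from the wt change was itself not called, at −0.37 ± 0.44 for ko (adjusted p = 0.865) and −0.53 ± 0.45 for ki (adjusted p = 0.9994). Without ko day 7 replicate 3 the change over genotypes was 1.17 (adjusted p = 9.1e-05). Without naive wt replicate 1, the library with the lowest level, the wt change was 1.30 and its adjusted p 0.052.

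The transcript that holds Mir142 did not move with it. Mir142hg was at 20.9 ± 3.38 CPM at day 7 and 25.9 ± 3.39 CPM in naive wt libraries (SD, n = 5 and 4). It was at 21.4 ± 3.65 and 22.7 ± 3.46 CPM in ko and at 24.2 ± 3.25 and 22.1 ± 2.98 CPM in ki libraries (SD, n = 4 each). Its log2 fold change was −0.08 ± 0.08 averaged over genotypes (adjusted p = 0.61 by edgeR). The log2 ratio of Mir142 to Mir142hg counts, with 0.5 added to each, was −1.45 ± 0.21 at day 7 and −3.40 ± 0.80 in naive wt libraries (SD, n = 5 and 4). It was −1.75 ± 0.69 and −2.96 ± 0.63 in ko and −1.77 ± 0.42 and −2.56 ± 0.15 in ki (SD, n = 4 each). In each genotype the lowest day 7 ratio was above the highest naive one. This ratio was chosen after the values were seen and is given without a test. The Mir142 row lies in an intron of Mir142hg, and the entry Mir142b on the opposite strand covers the same bases and had 32 counts. The strand setting of the counting was not given, so reads of these entries cannot be told apart here.

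Mir1938 showed the largest fold change among the called microRNA rows. In wt mice it had 36, 11, 72, 18 and 76 counts at day 7 (1.88, 1.69, 2.49, 0.777 and 4.57 CPM), against 3, 1, 3 and 0 counts in naive libraries (0.471, 0.134, 0.353 and 0 CPM), with no overlap. In ko mice it had 0.894, 1.69, 2.70 and 1.69 CPM at day 7, against 0.419, 0.0708, 0.566 and 0.495 CPM in naive libraries, again with no overlap. In ki mice it had 2.55, 1.77, 3.19 and 1.47 CPM at day 7, against 1.23, 0.399, 0.533 and 2.28 CPM in naive libraries, where replicate 4 lay within the day 7 range. The log2 fold change was 2.19 ± 0.37 (SE) averaged over genotypes (4.56-fold, adjusted p = 2.2e-04 by edgeR). It was 3.32 ± 0.73 in wt (adjusted p = 0.011), 2.11 ± 0.60 in ko (adjusted p = 0.102) and 1.13 ± 0.58 in ki (adjusted p = 0.358). Without ko day 7 replicate 3 the change over genotypes was 2.09 (adjusted p = 5.1e-04). Without naive wt replicate 4, the library with 0 counts, the wt change was 2.84 and its adjusted p 0.055.

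The Mir1938 hairpin begins 378 bases downstream of the RefSeq start of Ifrd1 and ends 477 bases downstream, in an intron. Ifrd1 encodes an interferon-related regulator that is induced by growth signals and stress. Its level was 24.7 ± 4.48 CPM at day 7 and 22.8 ± 1.48 CPM in naive wt libraries (SD, n = 5 and 4), 23.3 ± 2.79 and 23.8 ± 3.14 CPM in ko, and 26.7 ± 2.03 and 24.4 ± 1.68 CPM in ki (SD, n = 4 each). The log2 fold change of Ifrd1 over genotypes was 0.07 ± 0.07 (adjusted p = 0.60 by edgeR). The log2 ratio of Mir1938 to Ifrd1 counts was higher at day 7 than in naive libraries by 3.08 in wt, 2.30 in ko and 1.13 in ki, and the groups overlapped in ki only. Per length, Mir1938 stood at 13.7 CPM per kb, 3.31 times the level over Ifrd1 exons. An antisense gene on the other strand, Gm7008, also overlaps this place, so the strand of these reads was not settled.

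**Figure D2:**
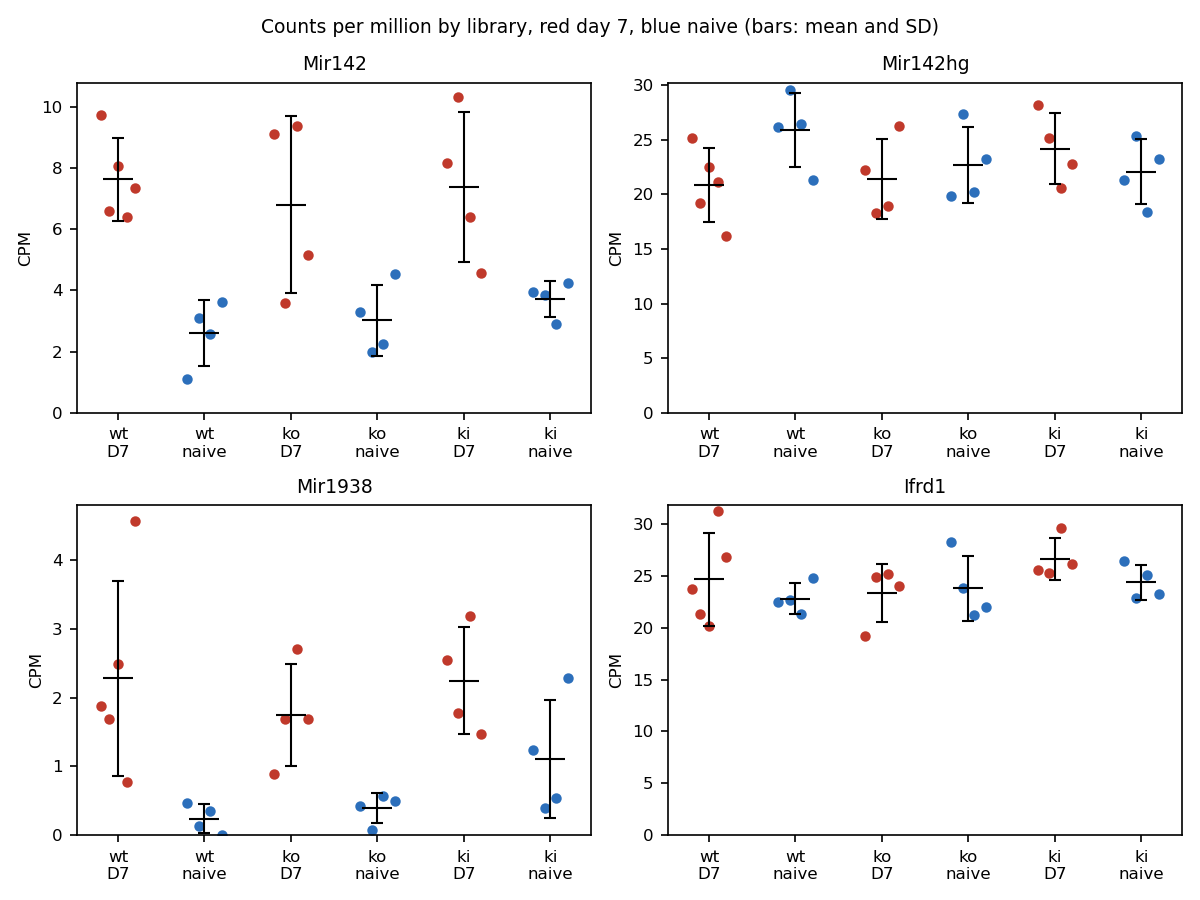
Points are libraries, in CPM, with the mean and SD of each group as bars. Mir142 and Mir1938 stood higher at day 7 (red) than in naive cells (blue) in each genotype, while Mir142hg and Ifrd1, the genes around them, had averages between 20.9 and 26.7 CPM in every group.

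Mirlet7a-1 was the only called row that fell, and over genotypes the transcript around it fell too. It had 2.65 ± 1.03 CPM at day 7 and 4.41 ± 2.06 CPM in naive wt libraries (SD, n = 5 and 4), 2.25 ± 0.755 and 3.18 ± 0.425 CPM in ko, and 2.65 ± 0.991 and 3.85 ± 0.507 CPM in ki (SD, n = 4 each). The log2 fold change over genotypes was −0.58 ± 0.19 (SE; adjusted p = 0.043 by edgeR). The call is weak: leaving out each library in turn gave −0.67 to −0.48, and the call was lost in 18 of 25 such fits, with adjusted p up to 0.107; without ko day 7 replicate 3 it was −0.53 (adjusted p = 0.079). The row lies in an exon of the non-coding gene 6720427I07Rik, which fell by 0.51 ± 0.10 on the log2 scale (adjusted p = 0.0013). That transcript was at 10.9 ± 3.31 CPM at day 7 and 19.5 ± 1.89 CPM in naive wt libraries (SD, n = 5 and 4), and was called in wt alone too (−0.84 ± 0.17, adjusted p = 0.0068). It was not called in ko (−0.23 ± 0.18, adjusted p = 0.62) or in ki (−0.46 ± 0.18, adjusted p = 0.197). The log2 ratio of Mirlet7a-1 to this transcript changed at day 7 by 0.19 in wt, −0.32 in ko and −0.14 in ki, and the groups overlapped in each genotype. The neighbours Mirlet7f-1 and Mirlet7d in the same cluster had 51 and 0 counts. Of the other let-7 rows, Mirlet7g, Mirlet7f-2 and Mir98 were tested and not called.

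Mir6236 differed from all other rows by its level. It had 1971 ± 374 CPM at day 7 and 1238 ± 256 CPM in naive wt libraries (SD, n = 5 and 4), 1931 ± 775 and 2009 ± 324 CPM in ko, and 2240.2 ± 843 and 1276 ± 272 CPM in ki (SD, n = 4 each). The log2 fold change over genotypes was 0.48 ± 0.14 (SE; adjusted p = 0.022 by edgeR), and by genotype 0.67 ± 0.23 in wt (adjusted p = 0.13), −0.06 ± 0.24 in ko (adjusted p = 0.95) and 0.81 ± 0.24 in ki (adjusted p = 0.077). The call over genotypes was lost without ko day 7 replicate 3 (0.41, adjusted p = 0.052) and without ki day 7 replicate 1 (0.40, adjusted p = 0.057). The share of counts on ribosomal RNA genes and rows resembling them averaged higher at day 7 in all 3 genotypes. It was 26.4% ± 1.34 at day 7 and 22.4% ± 1.32 in naive wt libraries (SD, n = 5 and 4). In ko it was 26.4% ± 4.66 and 25.1% ± 1.0005, and in ki 26.9% ± 1.402 and 23.1% ± 0.652 (SD, n = 4 each). The part of this share in the change of Mir6236 was not tested. The row overlaps no other gene in the annotation. The search for copies described below covered annotated transcripts only. No ribosomal RNA reference was at hand, so a match of Mir6236 or Mir6240 to ribosomal RNA was not checked.

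Mir196a-2, which lies among the Hoxc genes on chromosome 15, was called over genotypes with a log2 fold change of 1.97 ± 0.61 (SE; adjusted p = 0.035 by edgeR), and its counts were carried by few libraries. In wt mice it had 0.784, 0.307, 2.24, 1.81 and 0.421 CPM at day 7, against 0, 0.269, 0 and 0.412 CPM in naive libraries. In ko mice it had 4.30, 0.0941, 5.93 and 0.314 CPM at day 7, against 2.38, 1.70, 0.126 and 0.405 CPM in naive libraries. In ki mice it had 4.96, 0.308, 1.10 and 0.692 CPM at day 7, against 0.954, 0.160, 0.111 and 0.455 CPM in naive libraries. The groups overlapped in each genotype, and no genotype alone was called. Leaving out each library in turn gave 1.53 to 2.37 and lost the call in 10 of 25 fits, with adjusted p up to 0.116; without ko day 7 replicate 3 it was 1.73 (adjusted p = 0.076). Mir196a-1, among the Hoxb genes on chromosome 11, had its highest levels in the same libraries: 2.99 CPM in ko day 7 replicate 3, 2.93 CPM in ki day 7 replicate 1 and 1.96 CPM in ko day 7 replicate 1. Its log2 fold change was 1.89 ± 0.68 (adjusted p = 0.074).

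Mir6240 was not called, and 2 libraries held 3322 of its 4059 counts. Its level was 49.6 CPM in ko day 7 replicate 3 and 24.3 CPM in ko naive replicate 4. The other ko libraries had 0.282 to 2.64 CPM at day 7 and 0.638 to 1.18 CPM naive. The ki day 7 group came next, with 17.5 CPM in replicate 4, 6.05 CPM in replicate 1 and 1.97 to 2.00 CPM in the others. The fold change between genotypes was large with a large error, at a log2 of 3.76 ± 1.09 (SE) for ko over wt at day 7 (adjusted p = 0.198 by edgeR) and 4.31 ± 1.53 in naive cells (adjusted p = 0.491). Single libraries decided these values: without ko day 7 replicate 3 the day 7 change was 0.28 (adjusted p = 0.965), and without ko naive replicate 4 the naive change was 1.33. For ki over wt at day 7 the change was 2.75 ± 1.10, and 1.75 without ki day 7 replicate 4. The change between day 7 and naive cells over genotypes was 1.92 ± 0.76 (adjusted p = 0.103), 0.77 without ko day 7 replicate 3 (adjusted p = 0.498) and 2.92 without ko naive replicate 4, when it was called (adjusted p = 0.0045).

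**Figure D3:**
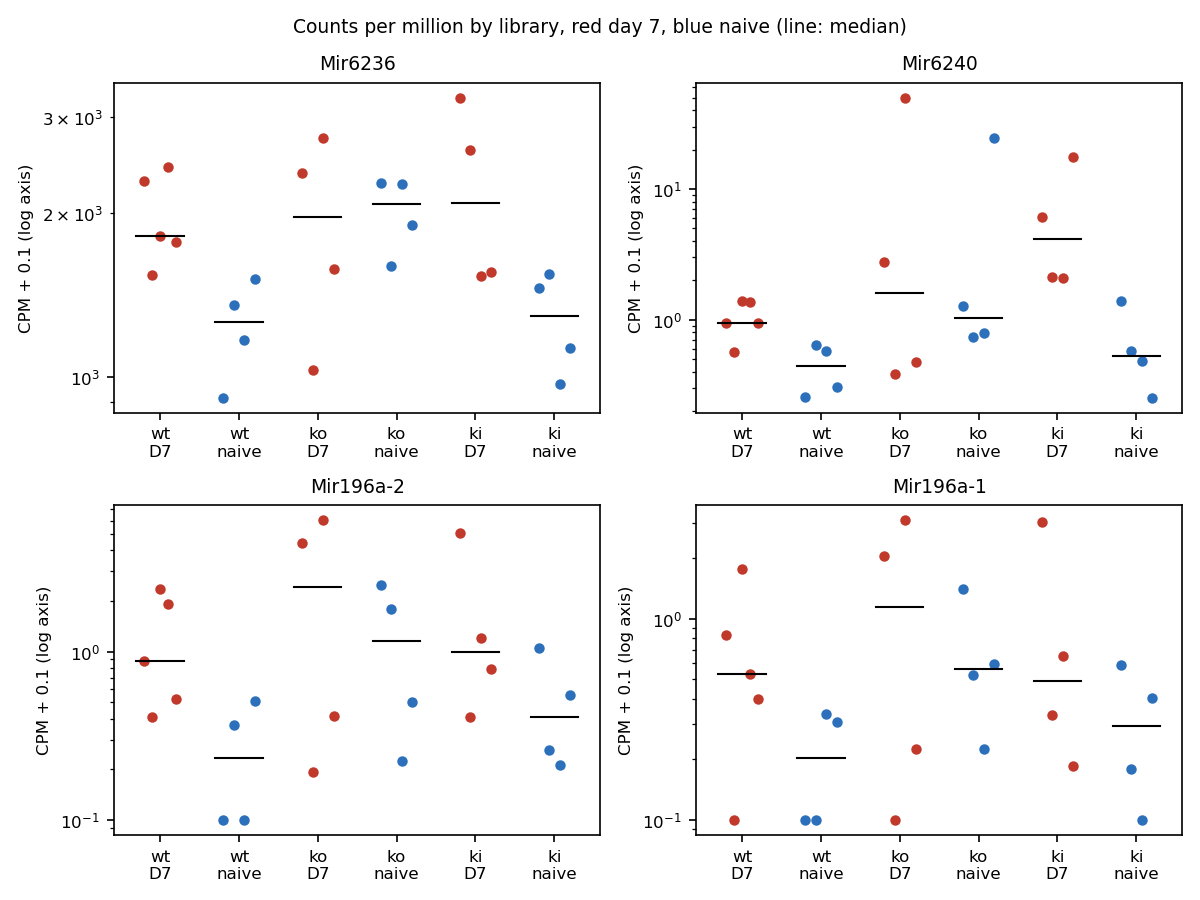
Points are libraries, in CPM with 0.1 added on a log axis, and lines are group medians. Mir6240 and the Mir196a rows are spread over a wide range within groups, with the highest values in single day 7 or ko libraries, while Mir6236 stays between 916 and 3256 CPM.

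Set against the genes that hold them, the tested microRNA rows had wider fold changes and larger errors. A tested overlapping gene on the same strand was available for 104 of the 119 rows, 89 distinct genes in all. Over genotypes the log2 fold changes of these genes between day 7 and naive cells ran from −0.51 to 0.48, and those of the microRNA rows from −1.22 to 2.19 with a median SE of 0.39. The sign was the same in 56 of 104 pairs. The overlapping gene was called in 18 pairs, of which 11 had a microRNA row of the same sign. The differences farthest from 0 were 2.12 for Mir1938 with Ifrd1, 1.31 for Mir142 with Mir142hg and −1.30 for Mir7651 with Zmiz2, the last from a row that was not called (−1.22 ± 0.48, adjusted p = 0.106 by edgeR).

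**Figure D4:**
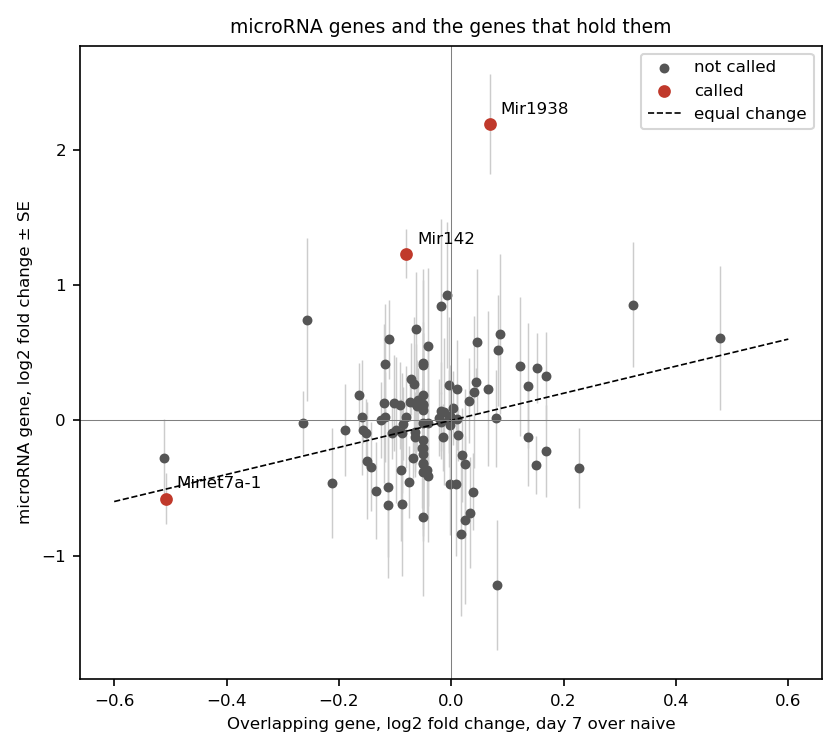
Each point is a tested microRNA row and the gene around it, with the log2 fold change of day 7 over naive cells averaged over genotypes on both axes and the SE of the row as a grey line. Mir142 (1.23) and Mir1938 (2.19) lie far above the dashed line of equal change, and Mirlet7a-1 (−0.58) lies near it.

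For the 190 rows with 50 or more counts in an intron of a gene with at least 5000 counts, the level per length over the hairpin was also set beside that over the gene's exons. The median ratio was 0.481, with quartiles of 0.237 and 0.857, and 35 rows stood above their gene. Mir16-2 stood at 0.163 of Smc4, Mir15b at 0.0251 of Smc4, Mir7-1 at 0.168 of Hnrnpk and Mirlet7g at 0.871 of Wdr82. The highest ratios were 3.73 for Mir1960 in Hadhb, 3.31 for Mir1938 in Ifrd1, 3.25 for Mir28a in Lpp, 2.85 for Mir466o and 2.47 for Mir467a-1 in Sfmbt2, and 2.15 for Mir1904 in Pde4d. Mir652 in Tmem164 and Mir5104 in Zc3h12d, of a family of RNases, followed at 1.94 and 1.93. Mirlet7a-1 stood at 12.9 times its transcript, and Mir27b and Mir24-1 at 3.88 and 3.75 times 2010111I01Rik, all 3 inside exons. This ratio sets intron or hairpin reads against exon reads and does not measure processing.

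Near-identical copies limit some rows. An alignment of at least 95% identity over at least 90% of the hairpin to a transcript of a gene elsewhere was found for 95 rows, of which 49 had counts and 28 had 50 or more. Of the 95, 50 belong to the cluster in the Sfmbt2 intron. Mir703, with 630 counts, matched 109 bases of Eef1a1, the translation elongation factor gene, at 98.2% identity, and Eef1a1 had 1758393 counts, so reads of Mir703 are uncertain. Gm23935, a row annotated as a microRNA whose symbol is outside the rule, had 41942316 counts, 8.04% of all, and is counted in the ribosomal share given above.

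Rows within 10 kb of each other on the same strand formed 82 clusters, 47 of them with counts. The largest was the rodent cluster in an intron of Sfmbt2 on chromosome 2, from base 10466663 to 10518279, which holds 71 rows of the miR-297, miR-466, miR-467 and miR-669 families. Of these 62 had counts, 41 had 50 or more, and 14 were tested. They had 6387 counts together, at most 425 in a row (Mir466o). The summed level was alike in all groups: 11.9 ± 2.21 CPM at day 7 and 12.8 ± 1.098 CPM in naive wt libraries (SD, n = 5 and 4), 12.4 ± 2.85 and 13.7 ± 1.87 CPM in ko, and 12.2 ± 0.724 and 12.2 ± 1.58 CPM in ki (SD, n = 4 each). The log2 fold changes over genotypes of the 14 tested rows ran from −0.71 to 0.42 with a median of −0.08, and none was called in any of the 10 comparisons. Sfmbt2 itself, a Polycomb-group gene, changed by −0.05 ± 0.08 (adjusted p = 0.77 by edgeR). The 50 rows with a near-identical copy had a median of 40.5 counts and the 21 without one a median of 124. How reads with several matches were counted was not given.

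**Figure D5:**
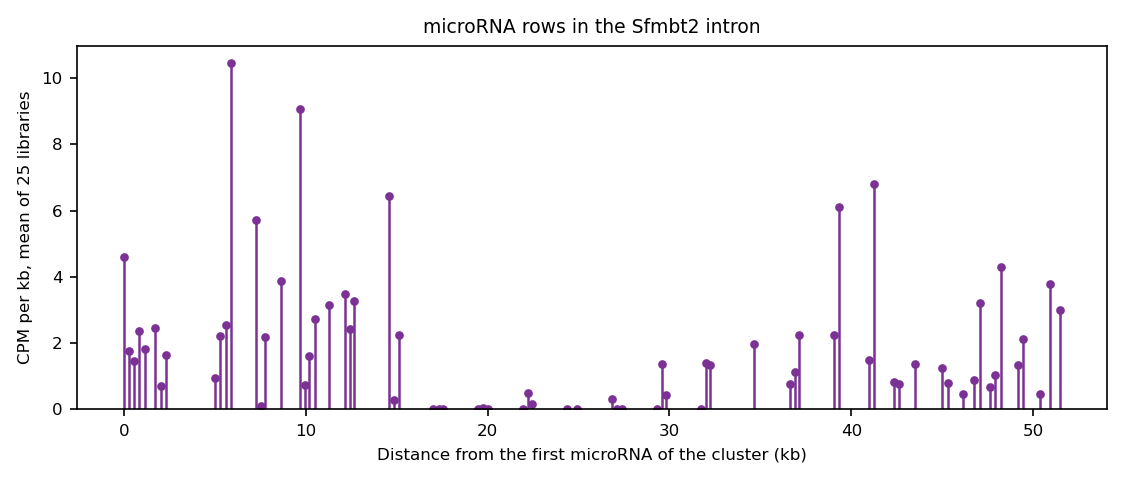
Each line is a microRNA row of the Sfmbt2 cluster, placed by its distance in kb from the first row, with the level in CPM per kb averaged over 25 libraries. The highest row, Mir466o, stood at 10.5 CPM per kb, and rows near the middle of the cluster were at or close to 0.

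The other clusters with more than 1 row of 50 or more counts were small. Mir23b, Mir27b and Mir24-1 on chromosome 13 had 1207 counts together, at 2.47 ± 0.963 CPM at day 7 and 2.11 ± 0.585 CPM in naive wt libraries (SD, n = 5 and 4). Mir15b and Mir16-2 had 1030, at 2.07 ± 0.892 and 2.16 ± 0.472 CPM. Mirlet7f-2 and Mir98 in Huwe1, a ubiquitin ligase gene on the X chromosome, had 574, at 1.23 ± 0.545 and 1.13 ± 0.411 CPM. Mir29a and Mir29b-1 had 471, at 1.46 ± 0.581 CPM at day 7 and 0.452 ± 0.396 CPM in naive wt libraries. The summed Mir29 level was also higher on average at day 7 in ko (1.15 ± 1.16 and 0.662 ± 0.287 CPM) and in ki (1.39 ± 0.734 and 0.728 ± 0.0951 CPM; SD, n = 4 each), and Mir29a alone had a log2 fold change of 1.61 ± 0.64 (SE) over genotypes that was not called (adjusted p = 0.111 by edgeR). Mir30c-1 and Mir30e in Nfyc had 399, at 1.02 ± 0.786 CPM at day 7 and 0.432 ± 0.344 CPM in naive wt libraries.

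Between genotypes no microRNA row was called by edgeR. For ko over wt, 9 of 119 rows had an unadjusted p under 0.05 at day 7 (7.56%, all genes 9.45%; called among all genes 0.0476%) and 8 in naive cells (6.72%, all genes 7.55%; called 0.0204%). For ki over wt, 7 rows had one at day 7 (5.88%, all genes 4.65%; called 0%) and 3 in naive cells (2.52%, all genes 2.26%; called 0.0136%). DESeq2 called 0 of the rows for which it gave an adjusted p in these 4 comparisons. The difference of the day 7 change from wt was called for no row and for 0% of all genes, with 5 rows under an unadjusted p of 0.05 for ko (4.2%, all genes 7.79%) and 5 for ki (4.2%, all genes 3.8%). Among the most abundant rows, Mir142 had a log2 fold change of −0.15 ± 0.28 (SE) for ko over wt at day 7 and 0.23 ± 0.34 in naive cells, and −0.06 ± 0.29 and 0.47 ± 0.34 for ki over wt. Mir342 had −0.33 ± 0.17 and −0.25 ± 0.19 for ko over wt, and −0.16 ± 0.17 and 0.11 ± 0.19 for ki over wt. Mir5125 had 0.16 ± 0.17 and 0.05 ± 0.19 for ko over wt, and 0.19 ± 0.17 and 0.03 ± 0.19 for ki over wt. None of these was called, and the errors do not show that the levels were equal.

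The rows with an unadjusted p under 0.05 are named here without a call. For ko over wt in naive cells they were Mir6374 (−0.79 ± 0.26), Mir6236 (0.70 ± 0.24), Mir6240, Mir7063 (−2.42 ± 0.86), Mir8099-1 (−2.64 ± 1.06), Mir26b (2.51 ± 1.01), Mir1190 (0.74 ± 0.35) and Mir196a-2 (2.63 ± 1.27). At day 7 they were Mir6240, Mir1957a (1.63 ± 0.63), Mir874 (−2.53 ± 0.98), Mir744 (−2.93 ± 1.199), Mir1936 (−1.44 ± 0.60), Mir328 (−1.96 ± 0.82), Mir466q (−0.90 ± 0.40), Mir146 (−1.96 ± 0.88) and Mir3060 (1.25 ± 0.59), all as log2 fold change ± SE. The lowest adjusted p was 0.458 in naive cells and 0.198 at day 7. For ki over wt in naive cells they were Mir1938 (2.17 ± 0.77), Mir26b (2.23 ± 1.05) and Mir6924 (−0.89 ± 0.43), and at day 7 Mir6240 (2.75 ± 1.10), Mir6955 (−2.51 ± 0.92), Mir467a-1 (1.92 ± 0.74), Mir1964 (−1.96 ± 0.83), Mir5099 (1.46 ± 0.62), Mir3082 (−1.04 ± 0.46) and Mir27b (−1.12 ± 0.51), with adjusted p of 0.9988 or more.

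A list of 33 genes was counted as transcripts that hold well-known microRNAs, of which 27 were tested. The list came from general knowledge and not from the annotation used here. Over genotypes 2 were higher at day 7 (7.41%, all genes 6.16%) and 4 lower (14.8%, all genes 5.06%), with a median log2 fold change of −0.05, against 0.00 over all genes. Vmp1, which holds Mir21a, rose by 0.53 ± 0.08 (SE; adjusted p = 1.1e-04 by edgeR) and Pank1, which holds Mir107, by 0.63 ± 0.20 (adjusted p = 0.045). Zfp207 (−0.27 ± 0.05), Smc4 (−0.26 ± 0.05), Arrb1 (−0.19 ± 0.05) and Evl (−0.16 ± 0.04) fell. In wt alone Zfp207 and Smc4 were called, in ki Zfp207, and in ko none. None of the 27 was called between genotypes. The microRNA processing and silencing genes were a list of 14, of which 13 were tested: over genotypes none was higher (all genes 6.16%) and 3 were lower (23.1%, all genes 5.06%), Dgcr8 (−0.17 ± 0.04), Tnrc6b, a silencing scaffold (−0.14 ± 0.03), and Dicer1 (−0.10 ± 0.03), with a list median of −0.06. In ki alone Tnrc6b (−0.24 ± 0.05) and Ago2, the slicing Argonaute (−0.23 ± 0.06), were lower, and none was called in wt, in ko or between genotypes.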

How the data were processed

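The values were raw counts for Ensembl gene IDs in 25 sample columns, as deposited by the authors, and all columns were used. Per the labels, total RNA was made into libraries with a stranded SMARTer Pico kit and sequenced in pairs, and per the submitters' processing notes the build was mm10 and DESeq2 was used. Aligner, counter, strand setting and annotation are not given in the sources used here. Symbols and places came from GENCODE M21 on mm10 (45143 of 46078 IDs matched), and sequences from RefSeq (GRCm38.p6) and GENCODE.

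Low genes were removed by filterByExpr over the 6 groups (a count of 10 and a total of 15 as minima; 14703 genes left). TMM scaling was followed by edgeR's quasi-likelihood model over all libraries, 1 mean per group, for 10 two-sided comparisons adjusted over all genes tested. The procedure was tested on simulated data. No pair of libraries of a group agreed within sampling noise. The rule for named genes asked for every row with 50 or more counts; since there were 250, the text names those called, those with an unadjusted p under 0.05, the most abundant and the known T cell microRNAs, a narrowing made after the counts were seen. Members, lists and ratios were chosen with earlier results of these data known. Copies were searched among GENCODE M21 transcripts with blastn 2.17.0. Alternatives were RLE factors, DESeq2 1.42.0, no filter, a stricter filter, no mitochondrial, ribosomal or haemoglobin genes, and leaving out each library. The software was edgeR 4.0.16 and limma 3.58.1 in R 4.3.3, with pandas 2.3.3 and matplotlib 3.10.9 in Python 3.11.15.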

Additional observations from a re-analysis of the deposited data

Results flagged for a closer look

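Among 13 microRNA rows in 6 groups, 5 of 78 groups held a library far from the others. Chance gives about 1 in 20 groups such a library where rows are not chosen by their values. The 13 rows were picked with results of these data known, so their share cannot be set against that rate. Mir6240 was at 49.6 CPM in ko day 7 replicate 3, against 0.282 to 2.64 CPM in the other libraries of that group. It was at 24.3 CPM in ko naive replicate 4, against 0.638 to 1.18 CPM in the others. Mir196a-1 was at 2.93 CPM in ki day 7 replicate 1, against 0.0865 to 0.552 CPM in the others. Mirlet7a-1 was at 4.42 CPM in wt day 7 replicate 3, against 1.78 to 2.46 CPM in the others. Mir342 was at 7.59 CPM in ki naive replicate 4, the lowest of its group, against 8.86 to 8.93 CPM in the others.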

How the results depend on the processing

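No paired analysis was possible because the labels give no replicate numbers that groups share. Calls on microRNA rows moved most with the filter. With no filter, 5, 4 and 4 rows were called at day 7 in wt, ko and ki and 11 over genotypes. For ko over wt 3 were called in naive cells and 1 at day 7, for ki over wt 1 at day 7, and for the ko difference 1. Mir6240 and Mir6236 gave most of these, and the cause was not tested. Of all 29775 genes tested with no filter, 894, 540 and 890 were called at day 7 in wt, ko and ki. The number of microRNA rows tested with no filter is not given, nor is the all-gene count over genotypes. A rise of microRNA calls beyond that of all genes can therefore not be read from these counts. With the stricter filter of 5 CPM in at least 4 libraries, which tests fewer rows, 1 was called in wt (Mir142) and 2 over genotypes. The shares of all genes at that filter are not given, so these counts cannot be set against them. DESeq2 called 2 in ko and 1 in ki (all genes 1.44% and 3.79%). Without each library in turn, called rows ranged from 1 to 2 in wt, 0 to 1 in ko, 0 to 1 in ki and 2 to 5 over genotypes, and 0 in the other comparisons. The fold changes followed here were picked from these data. They were those with an unadjusted p under 0.05 in their comparison and, in each genotype, those of the rows called over genotypes. Such changes can hardly turn when 1 library is left out, so their count says nothing on the other rows. The direction was kept in all but 4 of 2242 alternative values of these 78 fold changes. The exceptions were the Mir6236 change in ko, which ran from −0.27 to 0.15 over these fits and was above 0 without naive replicate 1 or 3 or day 7 replicate 2 or 4 of the ko groups. The Mirlet7a-1 ratio to its transcript also turned, with a day 7 minus naive difference of −0.12 to 0.41 in wt (below 0 without day 7 replicate 3) and −0.26 to 0.023 in ki (above 0 without day 7 replicate 1); leaving out libraries for the ratios was added after the values were seen. Among all genes, DESeq2 called 498 and 491 at day 7 in wt and ki, against 315 and 297, and 1.44% of its genes in ko, against 0.408%; no filter gave 894, 890 and 540. For ko over wt DESeq2 called 82 at day 7 and 15 in naive cells, against 7 and 3, and no filter gave 349 and 147; for ki over wt no filter gave 96 and 59, against 0 and 2. The filter on low counts left 131 of the 250 rows with 50 or more counts untested.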
